A study of Mus musculus with 24 samples.

Results

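Etv1, Etv4 and Etv5 are the PEA3 subfamily of ETS transcription factors, and Spry1, Spry2, Spry4, Dusp6, Spred1 and Spred2 encode feedback inhibitors of the ERK pathway. These 9 of the 23337 genes in the count table were chosen by name as members of the 2 families, with earlier results from these libraries known. Those results held that Etv5 was higher in the double and triple mutant libraries than in control. Values of the 9 genes in these comparisons with control are therefore given as a description, without a test. Of the 9 genes, 8 passed the filter on low counts and Etv4 did not. In all mice the Cas9 nuclease was encoded at both Rosa26 alleles, an adeno-associated virus (AAV) was given on postnatal day 1, and cardiomyocytes were isolated at 4 weeks and sorted by flow cytometry. Ctrl mice (Rosa-Cas9/Cas9) received AAV-Cre. MKO mice had the same genotype and received AAV-Myocd-sgRNA, a virus with guide RNA against myocardin. DKO mice (Mrtfa-/-; Mrtfb-F/F; Rosa-Cas9/Cas9) received AAV-Cre, and TKO mice had the DKO genotype and received AAV-Myocd-sgRNA. The labels name no promoter for either virus and do not say whether the guide virus also carries Cre. Each group held 6 libraries, and since the labels do not tie each library to an animal of its own, the p-values speak of variation among libraries, which may be technical.

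Growth factors such as FGFs, EGF-family ligands and neuregulins bind receptor tyrosine kinases, which activate Ras, Raf, MEK and ERK in turn. ERK signalling raises transcription of PEA3 factors and of its own inhibitors, in part by relieving repression by Capicua (Cic), a DNA-binding repressor. Sprouty and Spred proteins restrain signalling at the level of Ras and Raf, and Dusp6 is a cytoplasmic phosphatase that removes the activating phosphates from ERK. Myocardin and the related factors Mrtfa and Mrtfb are coactivators of serum response factor (Srf), which binds CArG boxes and has ETS proteins of another subfamily as its alternative partners.

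The sequence just upstream of the transcription start was available for 7 of the 9 genes in RefSeq (GRCm38.p6, the build of the count table's coordinates), as 9 windows of 250 bases. Etv4 and Spry4 had none. The windows of 3 starts are printed, all 5′ to 3′ on the gene's strand, to show the letters that Capicua is known to bind beside the gene with the largest difference between groups and beside 2 inhibitors. Capitals mark TGAATG on either strand or the longer Capicua octamer, which contains TGAATG in some of its spellings. The Etv5 window belongs to the inner of its 2 RefSeq starts, lies in an intron of the longer gene model and overlaps no GENCODE exon. The Dusp6 and Spry2 windows also overlap no GENCODE exon.
Etv5, chr16:22438369-22438618, minus strand: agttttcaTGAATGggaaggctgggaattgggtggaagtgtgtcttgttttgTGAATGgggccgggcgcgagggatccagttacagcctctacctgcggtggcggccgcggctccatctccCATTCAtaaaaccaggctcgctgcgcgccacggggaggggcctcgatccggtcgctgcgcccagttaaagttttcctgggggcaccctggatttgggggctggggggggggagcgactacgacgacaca
Dusp6, chr10:99262981-99263230, plus strand: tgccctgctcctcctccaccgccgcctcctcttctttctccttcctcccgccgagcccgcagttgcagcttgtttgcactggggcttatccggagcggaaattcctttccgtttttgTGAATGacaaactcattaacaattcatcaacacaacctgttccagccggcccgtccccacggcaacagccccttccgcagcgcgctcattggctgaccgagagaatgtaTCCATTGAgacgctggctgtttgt
Spry2, chr14:105896820-105897069, minus strand: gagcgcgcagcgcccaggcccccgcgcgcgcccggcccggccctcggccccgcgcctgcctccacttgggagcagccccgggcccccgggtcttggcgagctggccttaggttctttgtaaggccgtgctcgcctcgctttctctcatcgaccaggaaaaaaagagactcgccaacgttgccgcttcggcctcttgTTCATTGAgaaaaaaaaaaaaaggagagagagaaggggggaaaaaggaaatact

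The inner Etv5 window held 3 copies of TGAATG and 4 of the ETS core GGAA. The window of the outer Etv5 start (chr16:22439571-22439820), not printed, held neither, and no match to the other motifs searched. At least 1 copy was present in 10.7% of 32536 RefSeq windows of this length, and at least 3 copies in 0.132%. TGAATG was added to the search after this window had been read, so these shares are a description. The Capicua octamer was present in 3.13% of all windows and in 2 of the 9 windows of the family, those of Dusp6 and Spry2. The ETS core GGAA was present in 8 of 9 and in 93.4% of all windows. The longer ETS site CCGGAA (12.1% of all windows), the AP-1 site TGANTCA (6.73%) and the CArG box (1.48%) were in none of the 9. CCGGAA contains GGAA, and all motifs were searched on both strands. A match in this window describes letters, not binding.

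Libraries held 5.83 to 17.2 M counts, with group medians of 11.2 in TKO, 11.4 in DKO, 11.7 in MKO and 9.49 in Ctrl. Mrtfa (Mkl1 in the table) averaged 2.12 ± 0.535 CPM (read counts scaled to library size, SD, n = 6) in TKO, 1.995 ± 0.453 in DKO, 9.83 ± 1.96 in MKO and 7.74 ± 2.09 in Ctrl. Mrtfb (Mkl2) averaged 35.5, 33.0, 51.3 and 49.0 CPM in the same order, counted over the whole gene and not over the floxed exons alone. Myocd averaged 244.6 CPM in TKO, 208.6 in DKO, 143.6 in MKO and 185.0 in Ctrl, which does not check the editing, since a small deletion need not lower a transcript. Srf averaged 81.9 ± 12.02 CPM in Ctrl and 42.8 ± 4.57 in TKO. The 9 cardiomyocyte markers summed to 89817 to 117128 CPM in TKO (median 100036), 92867 to 113023 in DKO (median 106486), 99926 to 122154 in MKO (median 112489) and 115438 to 142660 in Ctrl (median 133875), so that all 6 DKO libraries lay below every Ctrl library. None of the 9 passed singly in DKO vs Ctrl, where 4 of 9 log2 ratios were above 0. In TKO vs Ctrl 2 fell, and 3 of 9 ratios were above 0. In TKO vs DKO 2 rose and 1 fell, so the markers did not all move with the sum. The part of the lower sums in the values below was not tested. Library DKO 1 was the shallowest, and it and Ctrl 3 had the lowest sums of endothelial markers in their groups. Results were recomputed without those 2 libraries, the set of 22 that matched the authors' deposited comparisons.

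Etv5 was the member with the largest difference between groups. In Ctrl its level ran from 15.8 to 18.3 CPM with a median of 17.4, resting on 129 to 198 reads a library. In MKO it ran from 18.1 to 30.0 with a median of 21.4, in DKO from 20.9 to 34.2 with a median of 32.02, and in TKO from 80.8 to 164.5 with a median of 94.2. All 6 DKO libraries lay above the 6 Ctrl libraries, and all 6 TKO libraries lay above every library of the other 3 groups. The Ctrl and MKO ranges overlapped, in that 1 of the 6 MKO libraries was below the highest Ctrl library. TKO 4 was the highest library, at 164.5 CPM, against 115.1 in the next.

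**Figure D1:**
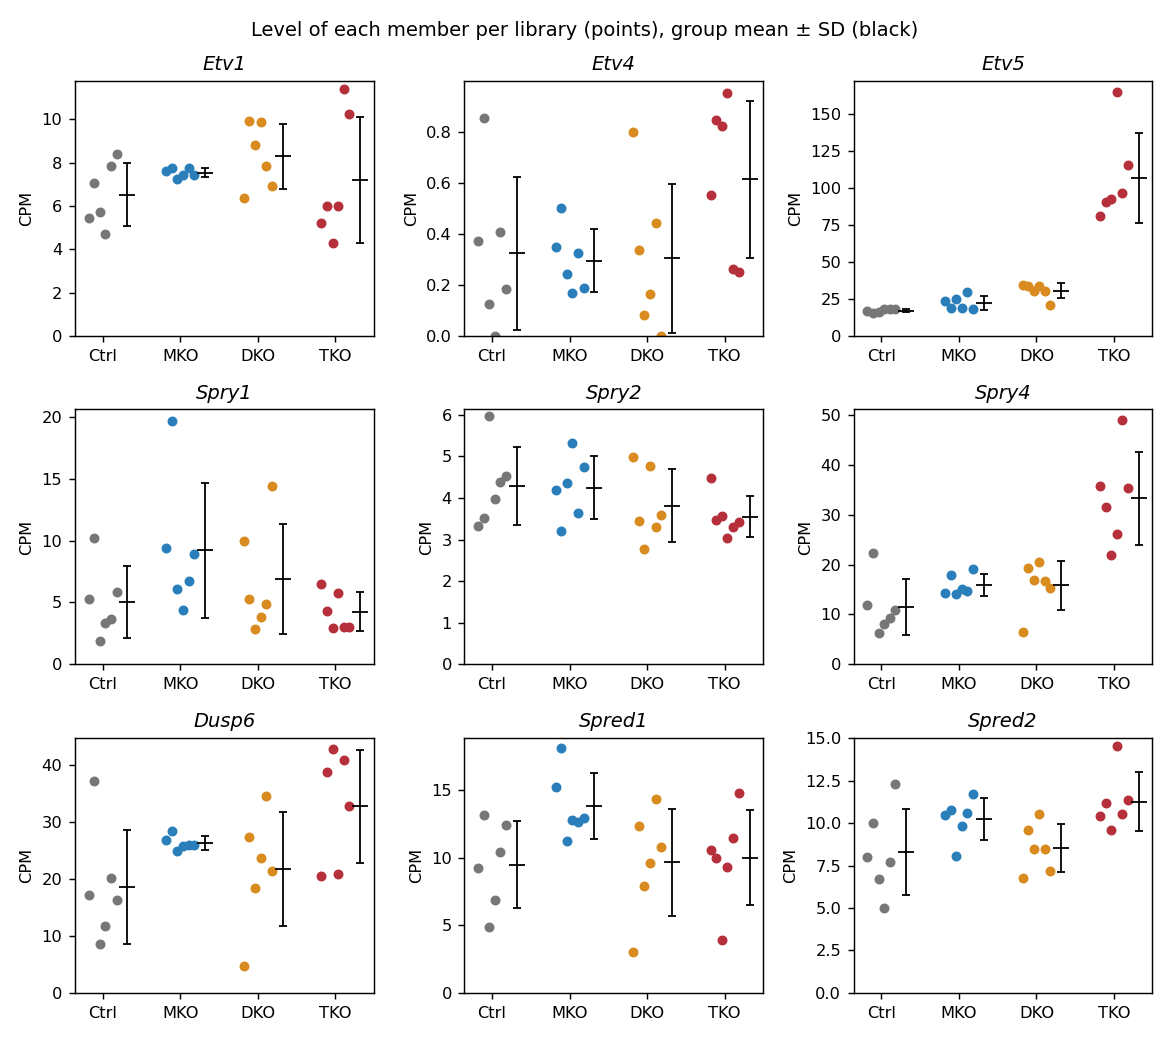
Level in CPM (linear axis from 0) of each of the 9 genes, 1 point per library, with the group mean and SD in black. The 6 TKO points of Etv5, from 80.8 to 164.5 CPM, stand above all others, those of Spry4 lie above all MKO and DKO points, and those of Etv1 and Spry2 overlap the other groups.

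Against Ctrl, Etv5 differed by 0.82 ± 0.16 (log2 ratio ± SE) in DKO, which is 1.77-fold, and by 2.63 ± 0.16 in TKO, which is 6.20-fold. By sex-linked transcripts, 1 of 6 DKO libraries was male against 4 of 6 in Ctrl. With a term for sex the DKO value was 0.69, the lowest of 31 alternative fits. Within the mutant genotype, Etv5 rose 3.501-fold in TKO over DKO (log2 ratio 1.81 ± 0.16, 95% interval 1.49 to 2.13, adjusted p = 7.44e-08, higher in 6 of 6 libraries). Under the same guide virus it rose 4.75-fold in TKO over MKO (2.25 ± 0.16, adjusted p = 1.34e-09, 6 of 6 libraries). The guide virus in the Cas9 genotype alone gave 0.38 ± 0.16 in MKO over Ctrl, which did not pass (adjusted p = 0.738). The difference between the 2 guide-virus effects was 1.42 ± 0.22 on the log2 scale (95% interval 0.97 to 1.88, adjusted p = 0.00171), so the guide virus was followed by a larger Etv5 difference in the Mrtf-mutant genotype. These comparisons share libraries with those in which Etv5 was already known to be high, so they are not independent evidence. Leaving out each of the 24 libraries in turn kept the call in TKO over DKO (1.64 to 1.88), in TKO over MKO (2.08 to 2.36) and in the difference of effects (1.26 to 1.54). The lowest of these values came without TKO 4.

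Etv1, known in the heart for its part in fast conduction tissue and atrium, ran from 4.28 to 11.4 CPM in TKO (median 5.998), 6.39 to 9.94 in DKO (median 8.33), 7.26 to 7.75 in MKO (median 7.53) and 4.70 to 8.41 in Ctrl (median 6.39). All groups overlapped, and TKO held both the lowest and the highest library. The log2 ratio of Etv1 in TKO over DKO was -0.22 ± 0.20 (95% interval -0.63 to 0.19, adjusted p = 0.510), opposite in sign to that of Etv5. Etv4, the remaining PEA3 factor, had 0 to 7 reads per Ctrl library, 2 to 5 per MKO library, 0 to 4 per DKO library and 3 to 14 per TKO library. Its mean level was 0.613 ± 0.307 CPM in TKO, 0.304 ± 0.292 in DKO, 0.295 ± 0.124 in MKO and 0.323 ± 0.301 in Ctrl. Ctrl 4 and DKO 6 had no Etv4 read, where 3 reads would be 0.307 and 0.244 CPM, so no fold change is given.

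Among the Sproutys, Spry4 (chromosome 18) was the one that differed most. It ran from 21.8 to 48.9 CPM in TKO (median 33.4), 6.59 to 20.4 in DKO (median 16.8), 14.2 to 19.2 in MKO (median 14.9) and 6.34 to 22.3 in Ctrl (median 10.1). Every TKO library lay above every MKO and DKO library, and 5 of 6 lay above the highest Ctrl library, Ctrl 2. Against Ctrl the log2 ratio was 0.49 ± 0.25 in DKO and 1.54 ± 0.25 in TKO. Spry4 rose 2.06-fold in TKO over DKO (1.05 ± 0.24, 95% interval 0.55 to 1.55, adjusted p = 0.00947) and 2.09-fold in TKO over MKO (1.06 ± 0.24, adjusted p = 0.00489), in 6 of 6 libraries each. The MKO to Ctrl ratio was 0.48 ± 0.25 (adjusted p = 0.773). For Spry4 the difference between the 2 guide-virus effects was 0.57 ± 0.35 and did not pass (95% interval -0.15 to 1.29, adjusted p = 0.530). It ran from 0.27 without Ctrl 2 to 0.71 without Ctrl 3, and without Ctrl 2 the DKO to Ctrl ratio was 0.79 and the MKO to Ctrl ratio 0.77. In TKO the libraries highest in Etv5 and Spry4 were not the same, being TKO 4 for Etv5 and TKO 5 for Spry4.

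Spry1 (chromosome 3, 37639950 to 37644599, plus strand) did not pass in any comparison by the unblocked edgeR fit of all 24 libraries. Its levels were 2.93 to 6.46 CPM in TKO (median 3.68), 2.86 to 14.4 in DKO (median 5.08), 4.40 to 19.7 in MKO (median 7.82) and 1.87 to 10.2 in Ctrl (median 4.48). All 4 groups overlapped. The log2 ratio was -0.25 ± 0.42 in TKO over Ctrl, -0.68 ± 0.41 in TKO over DKO (adjusted p = 0.318) and -1.11 ± 0.40 in TKO over MKO (adjusted p = 0.0691). The last passed with DESeq2 (-1.11, adjusted p = 0.0426), with only the 2 groups in the fit (0.0288), with the 22 libraries (0.0425) and with a block for replicate number (0.0393), and in the authors' deposited table it was -1.10 (adjusted p = 0.00635). It passed also without Ctrl 2 or without DKO 6, and was -0.74 without MKO 2, the leave-one-out value nearest to 0. With a library left out Spry1 ran from -0.84 to -0.28 in TKO over DKO, the latter without DKO 6, and from -0.41 to 0.07 in TKO over Ctrl, the latter without Ctrl 2, so its direction there rests on that library. Spry2 lay between 2.78 and 5.97 CPM over all 24 libraries, with no pair of groups apart. Its log2 ratio was -0.27 ± 0.17 in TKO over Ctrl and -0.09 ± 0.17 in TKO over DKO (95% interval -0.44 to 0.27, adjusted p = 0.791).

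Dusp6 (chromosome 10, 99263231 to 99267489, plus strand) spread widely within groups. It ran from 20.5 to 42.8 CPM in TKO (median 35.7), 4.79 to 34.6 in DKO (median 22.5), 24.8 to 28.3 in MKO (median 25.9) and 8.58 to 37.0 in Ctrl (median 16.7). Ctrl 2 was above 3 of the 6 TKO libraries, so Ctrl and TKO overlapped. The log2 ratio was 0.83 ± 0.31 in TKO over Ctrl, and between 0.68 and 1.14 when a library was left out, the latter without Ctrl 2. With the 22 libraries it was 0.69. In TKO vs Ctrl Dusp6 was not called by the fit of all 24 libraries. It was called with the 22 libraries, with the replicate block and in 2 of 24 fits with a library left out, given as a description. The log2 ratio in TKO over DKO was 0.58 ± 0.30 (95% interval -0.05 to 1.205, adjusted p = 0.251) and in TKO over MKO 0.32 ± 0.30 (adjusted p = 0.541). Its difference between the guide-virus effects was 0.07 ± 0.43.

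The Spreds, which act with neurofibromin to restrain Ras, did not pass in any comparison by the edgeR fit of all 24 libraries. Spred1 ran from 3.93 to 14.8 CPM in TKO, 2.996 to 14.4 in DKO, 11.2 to 18.1 in MKO and 4.85 to 13.2 in Ctrl, with all groups overlapping. Its log2 ratio was 0.02 ± 0.28 in TKO over DKO (95% interval -0.56 to 0.61) and 0.07 ± 0.28 in TKO over Ctrl. Spred2 ran from 9.62 to 14.5 CPM in TKO, 6.79 to 10.5 in DKO, 8.06 to 11.7 in MKO and 5.01 to 12.3 in Ctrl. Its log2 ratio was 0.44 ± 0.17 in TKO over Ctrl (0.59 without Ctrl 6, the one left-out library with which it passed) and 0.39 ± 0.16 in TKO over DKO (95% interval 0.05 to 0.73, adjusted p = 0.153).

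**Figure D2:**
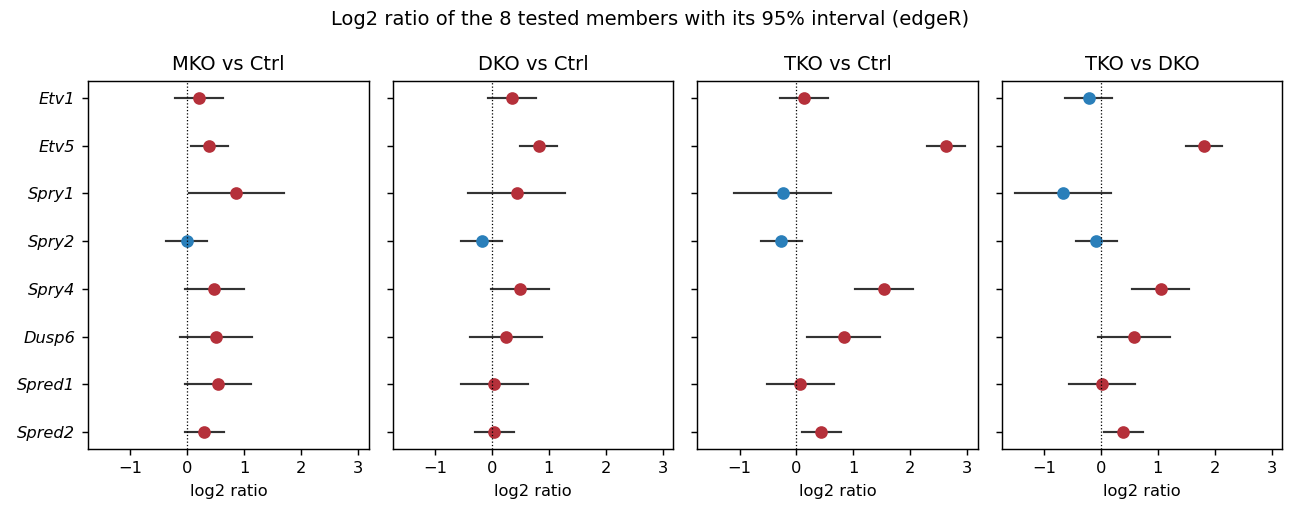
Log2 ratio (horizontal axis) of the 8 tested genes in 4 comparisons, with the 95% interval of each as a line, red above 0 and blue below. Etv5 is farthest to the right in DKO vs Ctrl (0.82), TKO vs Ctrl (2.63) and TKO vs DKO (1.81), followed by Spry4 in the last pair.

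Over all 12281 genes tested, the share called was 0% in MKO vs Ctrl, 0.635% in DKO vs Ctrl, 14.1% in TKO vs Ctrl, 6.38% in TKO vs DKO, 13.3% in TKO vs MKO and 0.464% for the difference of guide-virus effects. Of the 8 tested members, the numbers called were 0, 1, 2, 2, 2 and 1 in the same order, always Etv5 and, where 2, also Spry4, each in the higher direction. Nothing is read from the 2 counts in DKO and TKO against Ctrl, which were known. In MKO vs Ctrl edgeR called 0 genes, where 762 had an unadjusted p under 0.05 and the smallest adjusted p was 0.414.

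Levels per exon length placed the 9 genes in a different order in Ctrl and TKO. In Ctrl, Dusp6 was at 6.61 ± 3.56 CPM per kb of exon, Etv5 at 4.49 ± 0.277, Spred1 at 3.16 ± 1.07, Spred2 at 2.89 ± 0.887, Spry4 at 2.50 ± 1.23, Spry2 at 2.05 ± 0.453, Spry1 at 2.03 ± 1.17, Etv1 at 1.55 ± 0.347 and Etv4 at 0.138 ± 0.129. Neighbours in this order overlapped in their library ranges, except Etv1 (lowest 1.11) and Etv4 (highest 0.365). In TKO, Etv5 led at 27.9 ± 7.995 CPM per kb, and its lowest library, at 21.2, was above the highest Dusp6 library, at 15.3. Dusp6 at 11.7 ± 3.54 and Spry4 at 7.24 ± 2.04 followed and overlapped each other. Spred2 stood at 3.92, Spred1 at 3.33, Spry1 at 1.71, Etv1 and Spry2 at 1.70 and Etv4 at 0.263. From Dusp6 down to Spry2 neighbours overlapped, and Etv4 lay below all of them.

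In bulk RNA a fall in the number of cells of a type and less RNA per cell cannot be told apart, and endothelial cells are known to express several of these inhibitors. The 15 endothelial markers summed to 186.1 to 758.0 CPM in TKO, 326.8 to 993.1 in DKO, 736.5 to 1599 in MKO and 184.4 to 1938 in Ctrl, and none was at 0 in all libraries. Ctrl 2 had the highest and Ctrl 3 the lowest endothelial sum among Ctrl libraries. The same 2 libraries were the highest and lowest in Spry1, Spry4, Dusp6 and Spred1. Spry2 was instead highest in Ctrl 3, and Spred2 was highest in Ctrl 6 and lowest in Ctrl 4. DKO 1 had the lowest endothelial sum of the DKO libraries and the lowest Spry4, Dusp6, Spred1 and Spred2. Its Spry1, at 9.99 CPM, lay inside the DKO range of 2.86 to 14.4, and its Spry2 was the highest of the group. MKO 2 had the highest endothelial sum of its group and the highest Spry1, Dusp6 and Spred1, but the lowest Spry2. Spry4 and Spred2 were highest in MKO 6. In TKO the extremes of Spry1, Spry4, Dusp6 and Spred1 were not those of the endothelial sum, apart from the library named next. TKO 6 had the lowest endothelial sum and the highest Spred1, at 14.8 CPM. TKO 4 had the highest sum, the highest Spred2 and the lowest Spry2, with Dusp6 at 20.9 CPM in a group range of 20.5 to 42.8. Endothelial markers were lower in TKO than in DKO (median log2 ratio -0.71 over 15 genes, 0 of 15 passed) and than in MKO (-1.14, 7 of 15 fell), where Etv5 and Spry4 rose and the Spry1 ratios were below 0. In Ctrl, Etv5 ran from 15.8 to 18.3 CPM and the endothelial sums from 184.4 to 1938. The part of endothelial RNA in the values of Etv5 and of the other members was not tested.

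**Figure D3:**
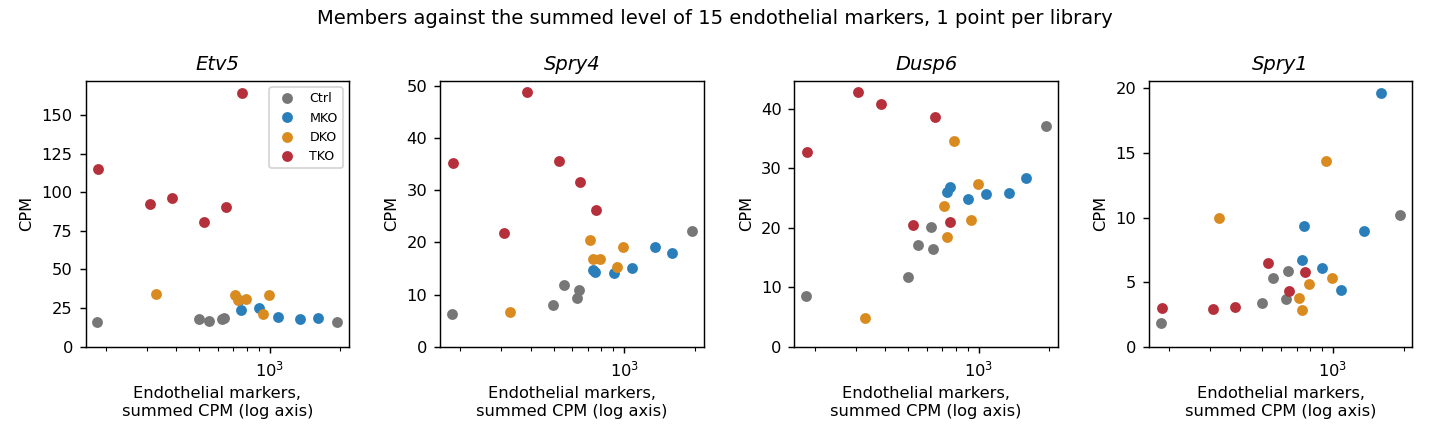
Level of Etv5, Spry4, Dusp6 and Spry1 in CPM against the summed CPM of 15 endothelial markers (log axis), 1 point per library. The TKO points of Etv5 and Spry4 stand at endothelial sums of 186.1 to 758.0, whereas the highest Ctrl points of Spry4, Dusp6 and Spry1 belong to the library with a sum of 1938.

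Markers of other cells were measured in the same way. Fibroblast markers (11 tested of 12) had a median log2 ratio of -0.89 in TKO over MKO, with 2 of 11 passing, both lower, and of -0.61 in TKO over DKO, with none passing. Their sum was 326.0 to 425.8 CPM in TKO, 145.8 to 792.8 in DKO, 446.7 to 1229 in MKO and 174.2 to 771.8 in Ctrl. Mural cell markers without the 4 known Srf targets summed to 398.0 to 664.5 CPM in TKO, 191.3 to 623.6 in DKO, 629.6 to 812.5 in MKO and 473.4 to 814.9 in Ctrl. Of 9 mural markers tested, with Srf targets not left out, 6 fell and 1 rose in TKO vs MKO (median log2 ratio -1.36). Leukocyte markers summed to 5.97 to 29.8 CPM over all libraries, and nerve markers to 2.04 to 6.60. Atrial and conduction markers, of cells in which Etv1 is known to act, summed to 172.2 to 598.9 CPM in Ctrl and 217.1 to 335.0 in MKO. Their sums were 151.1 to 695.5 in DKO and 401.2 to 4159 in TKO, where 6 of 10 rose against Ctrl and 2 of 10 against DKO. TKO 4 had the highest atrial and conduction sum and the highest Etv5. Without TKO 4 the log2 ratio of Etv5 in TKO over DKO was 1.64 (edgeR, adjusted p = 3.89e-08). TKO 3 and TKO 2, with sums of 2718 and 1593 CPM, stayed in that fit, so it does not remove the marker difference. The part of these cells in the Etv5 values was not tested.

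Etv5 (chromosome 16, 22381313 to 22439570, minus strand) lies 8.96 Mb from Mrtfb, the floxed gene, so DNA linked to the targeted allele would be shared by DKO and TKO mice. In DKO vs Ctrl and in TKO vs MKO the targeted genotype and linked DNA cannot be told apart. TKO and DKO have the same labelled genotype, and there Etv5 was 1.81 higher on the log2 scale, against 0.82 in DKO over Ctrl. Of the 95 tested genes between Mrtfb and Etv5, 1 was called in DKO vs Ctrl, and it was lower (Rtn4r, chosen after its values were seen, -2.64 ± 0.38). In TKO vs DKO 6 of the 95 were called, which is 6.32%, next to 6.38% of all genes. In TKO vs MKO and in TKO vs Ctrl 15 of the 95 were called, or 15.8%, next to 13.3% and 14.1% of all genes. Within 10 Mb of Mrtfb on either side, Mrtfb left out, 4 of 161 tested genes were called in DKO vs Ctrl, or 2.48%, against 0.635% of all genes. These were Etv5 and Rtn4r and, on the other side of Mrtfb, Emp2 (0.51) and Snn (-1.18), named after their values were seen. Since the 161 include Etv5, already known to be higher in DKO, the share of 2.48% is a description. In TKO vs DKO 13 of the 161 were called, or 8.07%. In TKO vs MKO 31 were called, or 19.3%, and in TKO vs Ctrl 33, or 20.5%. These shares include Etv5 too and are likewise a description. Within 5 Mb of Etv5, other than Etv5, 1 of 75 tested genes was called in DKO vs Ctrl and 6 of 75, or 8%, in TKO vs DKO. In TKO vs MKO and in TKO vs Ctrl 16 of 75 were called, or 21.3%. The part of linked DNA in these shares was not tested.

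Of the 3 nearest tested genes on each side of Etv5, Igf2bp2 and Dnajb11 passed in some comparison. Igf2bp2 encodes an RNA-binding protein, and its middle lies 0.299 Mb from that of Etv5. It rose by 1.16 ± 0.16 in TKO over Ctrl (adjusted p = 2.01e-05) and by 0.87 ± 0.16 in TKO over DKO (adjusted p = 0.00125). Its log2 ratio in DKO over Ctrl was 0.29 ± 0.16 (adjusted p = 0.566). Dnajb11, a chaperone of the endoplasmic reticulum, rose by 0.37 ± 0.09 in TKO over Ctrl (adjusted p = 0.00635) and had 0.27 ± 0.09 in TKO over DKO (adjusted p = 0.0680). Senp2, Tra2b, Dgkg and Tbccd1 did not pass in any of the 6 comparisons. Dgkg, the nearest on the far side, had 0.85 ± 0.36 in DKO over Ctrl (adjusted p = 0.405) and 0.01 ± 0.33 in TKO over DKO.

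**Figure D4:**
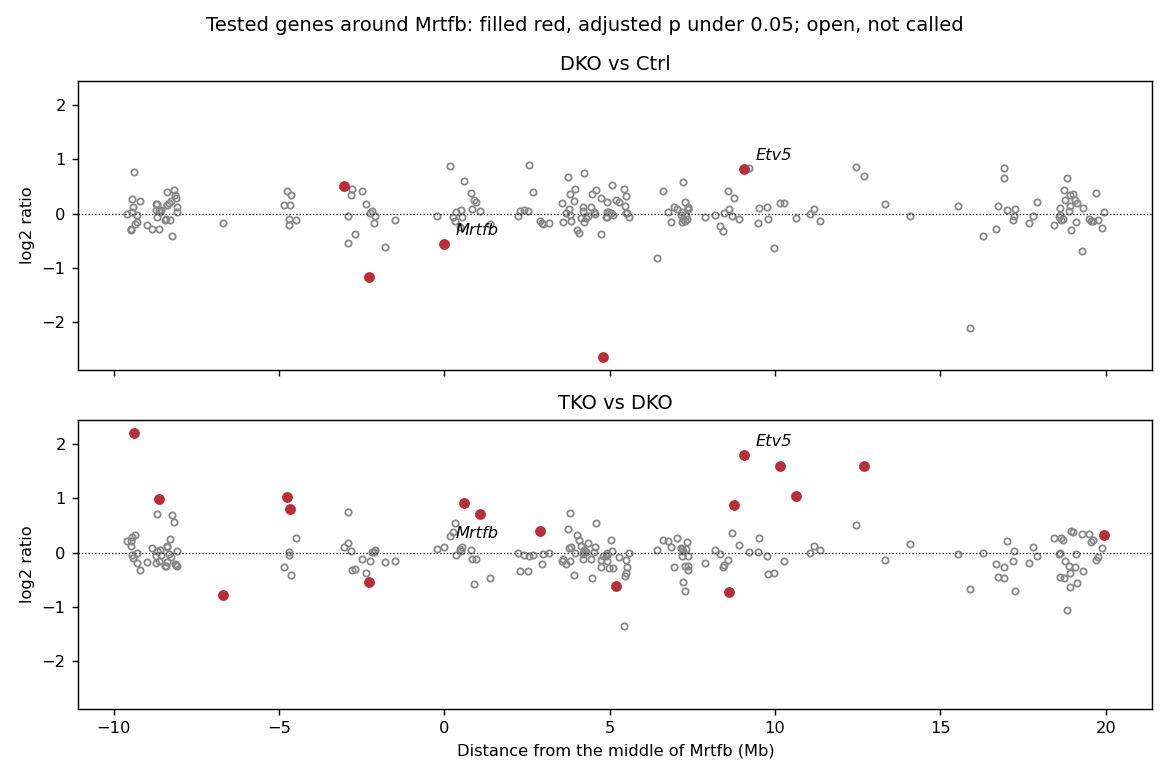
Log2 ratio of every tested gene around Mrtfb (0 on the horizontal axis, distance in Mb), in DKO vs Ctrl above and TKO vs DKO below, filled red where the adjusted p is under 0.05. Etv5, at about 9 Mb, is called in both panels, and among the genes between it and Mrtfb 1 is called above and 6 below.

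By Pearson correlation of log2 CPM over the 24 libraries, the genes most like Etv5 were Gnao1 (r = 0.968), which encodes a G protein alpha subunit, Cd44 (0.959), a hyaluronan receptor gene, 4930513N10Rik (0.950), Nt5e (0.943), the ecto-5'-nucleotidase CD73, and Hspa1l (0.931). Gnao1 averaged 52.6 ± 12.6 CPM in TKO, 14.2 in DKO, 7.56 in MKO and 6.01 ± 0.916 in Ctrl, and Cd44 117.1 ± 32.9, 43.4, 32.9 and 22.1 ± 3.61 in the same order. Gnao1 and 4930513N10Rik both lie on chromosome 8, Cd44 on 2, Nt5e on 9 and Hspa1l on 17. Whether linked DNA has a part in the 2 genes of chromosome 8 was not tested. The libraries share groups, so the coefficient reflects differences between groups as well as within them, and no test is given. Among the members, Spry4 had r = 0.718 with Etv5, rank 340 of 12280 genes, followed by Spred2 (0.483), Dusp6 (0.340), Etv1 (0.003), Spred1 (-0.118), Spry1 (-0.286) and Spry2 (-0.388).

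The rest of the pathway was covered by 7 lists that together held 163 genes in the table, of which 130 were tested. Against Ctrl, 0 of 130 were called in MKO and 0 in DKO. In TKO 18 rose and 5 fell, or 17.7% against 14.1% of all genes, with a median log2 ratio of -0.01, the same as over all genes to 2 decimals. In TKO vs DKO 9 rose and 3 fell (9.23% against 6.38%), and in TKO vs MKO 13 rose and 17 fell (23.1% against 13.3%). Without Ctrl 3 and DKO 1 the counts were 23 up and 18 down in TKO vs Ctrl and 13 up and 9 down in TKO vs DKO. Leaving out DKO 1 alone gave 37 in TKO vs Ctrl. The share of all genes called in these refits is not given here, so nothing about the pathway is read from their counts.

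**Figure D5:**
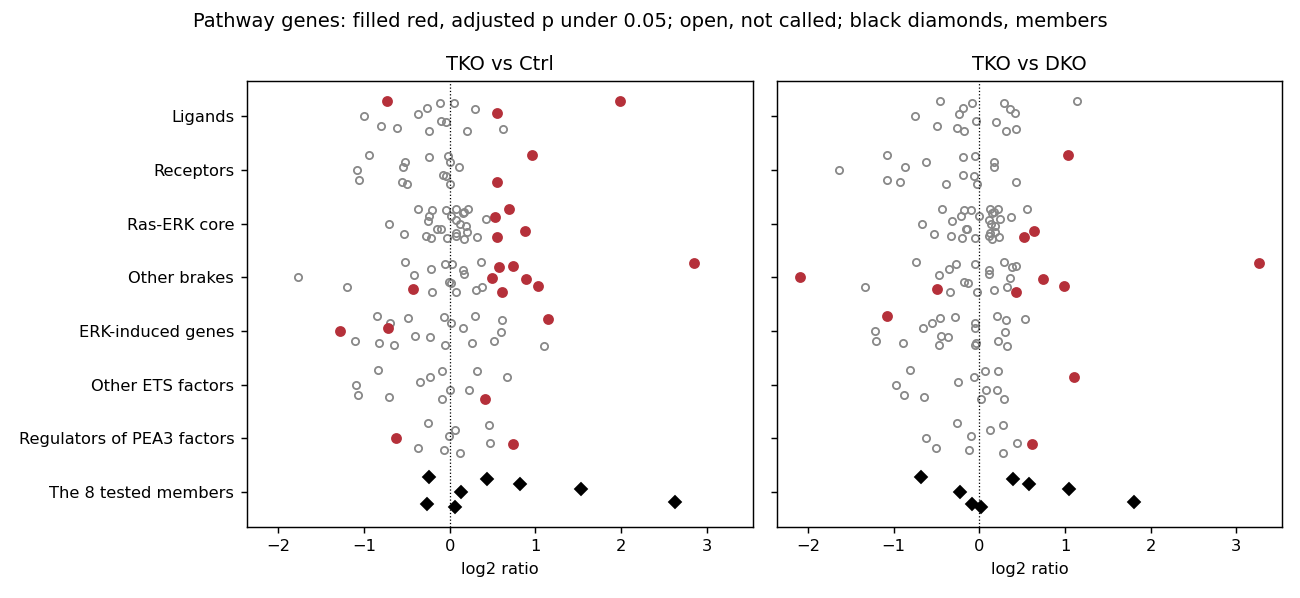
Log2 ratio of each tested pathway gene by list in TKO vs Ctrl and TKO vs DKO, filled red where the adjusted p is under 0.05, with the 8 tested members as black diamonds. Most lists have genes on both sides of 0, and Etv5, the rightmost diamond, stands at 2.63 and 1.81.

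Of 16 tested ligand genes, 2 rose and 1 fell in TKO vs Ctrl (18.8% against 14.1% of all genes). None passed in TKO vs DKO (0% against 6.38%), and in TKO vs MKO 2 rose and 2 fell (25% against 13.3%). Tgfa, an EGF receptor ligand, ran from 0.462 to 2.14 CPM in Ctrl and from 2.72 to 9.69 in TKO and rose by 1.98 ± 0.39 (adjusted p = 0.000997). Its ratio in TKO over DKO was 1.14 ± 0.36 (adjusted p = 0.0603). Fgf1, a broadly acting FGF, rose by 0.55 ± 0.13 in TKO over Ctrl (adjusted p = 0.00548). Igf2 and Pdgfb fell in TKO vs MKO, by 1.62 ± 0.37 and 1.49 ± 0.36. Those falls came where endothelial, mural and fibroblast markers also fell, and the part of these cells was not tested.

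Of 16 receptor genes, 2 rose in TKO vs Ctrl (12.5% against 14.1% of all genes) and 1 in TKO vs DKO (6.25% against 6.38%). In TKO vs MKO 1 rose and 4 fell (31.2% against 13.3%). Fgfr1 (13.5 to 15.4 CPM in Ctrl, 11.2 to 18.2 in DKO, 22.5 to 51.2 in TKO) rose in TKO by 0.96 ± 0.16 over Ctrl (adjusted p = 0.000188) and by 1.04 ± 0.16 over DKO (adjusted p = 0.000276). Its TKO libraries did not overlap those of either group. Pdgfrb, Kit and Pdgfra, receptors of mural, stem or mast, and fibroblast cells, fell in TKO vs MKO by 1.71, 1.66 and 1.27, and none of them passed in TKO vs Ctrl. Pdgfra and Pdgfrb are also in the fibroblast and mural marker lists. The call of Kit was lost without MKO 2 and that of Pdgfra without any of 5 libraries (MKO 2, MKO 4, TKO 1, TKO 2 or TKO 6).

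Among 30 genes of the Ras to ERK core, 4 rose and none fell in TKO vs Ctrl (13.3% against 14.1% of all genes). In TKO vs DKO 2 rose and none fell (6.67% against 6.38%), and in TKO vs MKO 2 rose and 3 fell (16.7% against 13.3%). Rras2, a Ras-related GTPase, ran from 55.1 to 74.7 CPM in Ctrl, 71.7 to 88.1 in DKO and 105.3 to 138.2 in TKO, with TKO above both. It rose by 0.88 ± 0.09 over Ctrl (adjusted p = 1.44e-07) and by 0.64 ± 0.09 over DKO (adjusted p = 4.61e-05). Its difference between guide-virus effects was 0.55 ± 0.12 (adjusted p = 0.0420), the only such call among the 130 genes, and it was lost in 18 of the 30 alternative fits. Rap1b and Rras, other small GTPases, rose in TKO over Ctrl by 0.55 ± 0.13 and 0.53 ± 0.13. Rps6ka1, an ERK-activated kinase, fell by 1.25 ± 0.32 in TKO vs MKO (adjusted p = 0.0111).

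Among 24 other brakes on the pathway, 7 rose and 1 fell in TKO vs Ctrl (33.3% against 14.1% of all genes). In TKO vs DKO 4 rose and 2 fell (25% against 6.38%), and in TKO vs MKO 5 rose and 1 fell (25% against 13.3%). Dusp16, a phosphatase with a preference for JNK and p38, rose by 0.61 ± 0.10 in TKO over Ctrl (adjusted p = 0.000226) and by 0.43 ± 0.10 over DKO (adjusted p = 0.0136), the latter lost with only the 2 groups in the fit (adjusted p = 0.0642). Lrig1, which promotes turnover of EGF receptors, rose by 0.57 ± 0.11 in TKO over Ctrl. Dusp8, another phosphatase of stress kinases, had 0.63 ± 0.17 in DKO (adjusted p = 0.0946) and rose by 0.74 ± 0.17 in TKO, both over Ctrl. Pea15a, which holds ERK in the cytoplasm, rose by 0.89 ± 0.21 in TKO over Ctrl.

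Of 21 genes known to be induced through ERK, 1 rose and 2 fell in TKO vs Ctrl (14.3% against 14.1% of all genes). In TKO vs DKO 1 fell (4.76% against 6.38%), and in TKO vs MKO 2 rose and 3 fell (23.8% against 13.3%). Myc, a growth-promoting transcription factor gene, rose by 1.15 ± 0.26 in TKO over Ctrl (adjusted p = 0.00320) and had 0.32 ± 0.25 over DKO (adjusted p = 0.443). Epha4, an ephrin receptor gene, fell by 1.28 ± 0.21 against Ctrl (adjusted p = 0.000164) and by 1.08 ± 0.21 against DKO (adjusted p = 0.00255). The list's median in TKO over DKO was -0.28, against -0.04 over all genes. Phlda1 and Plk3 passed in TKO vs MKO alone among the 6 comparisons, at 0.82 ± 0.24 and -1.39 ± 0.43, and these calls were lost in 4 and 7 of 31 alternative fits, each with 1 library left out.

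The last lists held the known regulators of PEA3 factors and other ETS factors. Of 10 regulators, 1 rose and 1 fell in TKO vs Ctrl (20% against 14.1% of all genes). In TKO vs DKO 1 rose (10% against 6.38%), as did 1 in TKO vs MKO (10% against 13.3%). Of 13 other ETS genes, 1 rose in TKO vs Ctrl (7.69%) and 1 in TKO vs DKO (7.69%), and 4 fell in TKO vs MKO (30.8%). Ets1, which is prominent in endothelial cells, fell there by 1.60 ± 0.43 (adjusted p = 0.0161). Ets2 and Elk3 fell by 0.54 ± 0.15 and 1.23 ± 0.36, again where endothelial, mural and fibroblast markers fell. Elf4 had 1.11 ± 0.33 in TKO over DKO (adjusted p = 0.0432), a call lost in 12 of 31 alternative fits. Cic, which encodes Capicua, averaged 12.1 ± 1.71 CPM in TKO, 13.2 in DKO, 13.2 in MKO and 11.2 ± 2.37 in Ctrl and did not pass in any comparison. Its log2 ratio in TKO over DKO was -0.12 ± 0.14 (95% interval -0.41 to 0.17). Atxn1, a partner of Capicua, had -0.62 ± 0.21 in TKO over Ctrl (adjusted p = 0.0472), lost in 19 of 31 alternative fits. Trib1, an adaptor of the COP1 ubiquitin ligase that degrades ETS factors, ran from 18.01 to 23.6 CPM in Ctrl and from 27.4 to 42.3 in TKO and rose by 0.74 ± 0.17 (adjusted p = 0.00348). Trib1 also passed in TKO over DKO at 0.62 ± 0.17 (adjusted p = 0.0249), which was lost with only the 2 groups in the fit or without DKO 2, DKO 6, TKO 2, TKO 3 or TKO 6 (adjusted p from 0.0517 to 0.107).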

How the data were processed

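Polyadenylated RNA of sorted cardiomyocytes was turned into cDNA by SMART-Seq and then into Nextera XT libraries, per the labels' protocols, which do not mark the strand. The authors deposited whole-number counts per gene for 24 libraries; the submitters' processing notes name STAR, featureCounts, DESeq2 and mm10, without versions. The authors also deposited 6 comparison tables with log2 ratios and standard errors, p-values, the mean normalised signal and the test score, per the file headers. DESeq2 1.42.0 refits matched their log2 ratios within 0.001 for 100% of genes without Ctrl 3 and DKO 1. Other per-gene values here are recomputed.

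Counts were tested with edgeR 4.0.16 (R 4.3.3) by the quasi-likelihood test after TMM scaling, in a single fit of the 24 libraries. The filterByExpr function (minimum count 10) kept 12281 genes, p-values were two-sided and Benjamini-Hochberg adjusted over them, and calls were made at 0.05. CPM uses effective library sizes, and correlations use log2 CPM with a prior count of 2. The script was tested on simulated counts. Alternatives were RLE size factors, no filter, DESeq2, only the 2 groups compared, a replicate block, the 22 libraries, a term for sex read from sex-linked transcripts (male libraries per group of 6: 3 in TKO, 1 in DKO, 4 in MKO and 4 in Ctrl), and each library left out.

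The members and lists were chosen with earlier results of these data known. Of 239 list entries, 235 matched a row, 1 under another name. Genes named beside the members are, by rule, the up to 4 called genes of each list with the smallest adjusted p, Cic, the 5 genes most correlated with Etv5 and the 3 nearest tested genes on each side of it. By position, Spry1 exons overlap the minus-strand model Gm42922, which has no row of its own. Intervals of log2 ratios come from the edgeR fit, and the 3-read limit given for Etv4 covers counting error only.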

Additional observations from a re-analysis of the deposited data

Results flagged for a closer look

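In 7 of 52 groups of 6 libraries 1 library lay far from the others by Dixon's test, which chance alone gives in about 1 in 20 groups. For Etv5 it was DKO 6, at 20.9 CPM against 30.1 to 34.2 in the other DKO libraries. For Spry4 these were Ctrl 2, at 22.3 CPM, which also had the highest endothelial sum of its group, and DKO 1, at 6.59 CPM, the shallowest library, with the lowest endothelial sum of its group. Spry1 was high in MKO 2 at 19.7 CPM, the MKO library with the highest endothelial and fibroblast sums. Spry2 was high in TKO 1 at 4.49 CPM, Spred2 in TKO 4 at 14.5 CPM and Srf in DKO 1 at 105.3 CPM. Also flagged was the Etv5 difference between guide virus and AAV-Cre, which was larger in the Mrtf-mutant genotype by 1.42 ± 0.22 on the log2 scale (edgeR, adjusted p = 0.00171). It uses libraries in which Etv5 was already known to be high, so it is not independent evidence.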

How the results depend on the processing

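The calls of Etv5 and Spry4 in TKO vs DKO and TKO vs MKO, and of Etv5 in the difference of guide-virus effects, held in every alternative run. The number of members called stayed at 0 in MKO vs Ctrl, 1 in DKO vs Ctrl, 2 in TKO vs DKO and 1 for the difference of guide-virus effects, and was 2 or 3 in TKO vs Ctrl and TKO vs MKO. Of 1233 values of members that did not pass, 33 changed sign. Pathway genes called in DKO vs Ctrl went from 0 to 1 with DESeq2, with the 22 libraries and with the sex term, and lay between 0 and 1 with a library left out. In TKO vs Ctrl they were 41 with the 22 libraries, against 23, and 17 to 37 with a library left out. In TKO vs DKO they were 19 with DESeq2, 4 with only the 2 groups and 22 with the 22 libraries, against 12, and 9 to 17 with a library left out. In TKO vs MKO they were 18 to 44 with a library left out, against 30. For the difference of guide-virus effects they were 0 with no filter, 3 with DESeq2, 4 with the replicate block, 2 with the 22 libraries and 2 with the sex term, against 1, and 0 to 16 with a library left out, 16 without Ctrl 2. The share of all genes called in each of these fits is not given here, so nothing about the pathway is read from the changes in count. The cause was not tested. Replicate numbers did not pair the libraries: same-numbered deviations had r from -0.22 to 0.64 (median 0.07), and 6 of 24 libraries correlated best with their own number. With the replicate block Dusp6 in TKO over Ctrl was 0.87 and Spry1 in TKO over MKO -0.98 (adjusted p = 0.0393). Counts of 0 to 14 reads limit Etv4.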

Other observations

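Dusp4, a nuclear phosphatase of ERK, was singled out after its values were seen. It had 0 to 11 reads per library in Ctrl and DKO, 3 to 9 in MKO and 5 to 177 in TKO, with the highest value of 16.8 CPM in TKO 4. Its log2 ratio was 2.85 ± 0.79 in TKO over Ctrl (edgeR, adjusted p = 0.0152) and 3.27 ± 0.82 in TKO over DKO (adjusted p = 0.0162). Without TKO 4 these were 1.52 ± 0.65 (adjusted p = 0.136) and 1.94 ± 0.67 (adjusted p = 0.106). TKO 4 was also the library with the most Etv5 and the highest sum of atrial and conduction markers.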
